A study of Mus musculus with 24 samples.

Results

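The stromal Wnt and BMP niche genes are 9 genes through which connective tissue cells under the intestinal epithelium are known to instruct epithelial stem cells: Pdgfra, Grem1, Bmp4, Bmp5, Wnt5a, Wnt2b, Rspo3, Foxl1 and Gli1. They were taken by name from the 39056 genes of the count table, after each Ensembl identifier had been matched to its mouse symbol, and were followed as CPM, that is, counts scaled to the size of each library, in the 12 libraries of CD45- ileal cells. All 9 had a count in at least 1 of these libraries. Of the 9, 8 passed the filter on low counts, Foxl1 being the exception, among 16453 genes that did.

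The renewal of the intestinal epithelium depends on opposed gradients of secreted signals from the mesenchyme. Wnt ligands and R-spondins are highest around the crypt base, where they maintain stem cells, whereas BMP ligands are highest along the villus, where they favour differentiation, and BMP antagonists made beneath the crypts protect the stem cells from them. Hedgehog proteins secreted by the epithelium act in return on stromal cells, in which GLI1 is both an effector and a target of the pathway. The cells that produce these signals include PDGFRA-expressing subepithelial telocytes, of which FOXL1 is a marker, and fibroblasts and trophocytes that lie deeper in the mucosa.

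The libraries came from the ileum of co-housed littermates of both sexes on the C57BL/6 strain of the labels (C57BL/6 J in the methods), aged 9.0 to 10.3 weeks, and asked how loss of HOIL1 and loss of the interleukin-4 receptor alpha chain from the epithelium act on intestinal cells. HOIL1, encoded by Rbck1 (also called Hoil1), belongs, with HOIP and SHARPIN, to the enzyme complex that builds linear ubiquitin chains. There were 4 genotypes with 3 CD45- libraries each: Hoil1+/+ and Hoil1-/- mice with Il4ra flox/flox alone (Il4ra f/f), and Hoil1+/+ and Hoil1-/- mice with Il4ra flox/flox and Vil1cre (Il4ra ΔIEC). All mice were homozygous for the floxed Il4ra allele, and the ΔIEC mice also carried Cre recombinase under the Villin promoter, which deletes Il4ra in intestinal epithelial cells only, and stromal cells are not a target of this Cre. The Hoil1-/- allele (Rbck1tm1Kiwa) leaves an N-terminal fragment of the protein at reduced level. After removal of Peyer's patches, part of the epithelial cells was added back to the lamina propria digest, and live CD45- and CD45+ singlets were sorted from the mixture, so that CD45- libraries hold epithelium, stroma and vessels together. The study's own sample list leaves out 1 CD45- library, Hoil1-/- Il4ra f/f replicate 3, as an outlier. The tests below used the other 11, and values are given for all 12.

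The CD45- libraries held 6028275 to 68345191 gene counts and counts of 13003 to 17013 genes. Rbck1 ranged from 85.5 to 122 CPM in the 6 Hoil1+/+ libraries and from 0 to 8.18 CPM in the 6 Hoil1-/- libraries. Il4ra was at 62.8 to 173 CPM in Il4ra f/f and 52.8 to 133 CPM in Il4ra ΔIEC libraries of Hoil1+/+ mice. In Hoil1-/- mice it was at 67.3 to 92.7 and 73.4 to 141 CPM. Its deletion was thus not visible in the gene counts of these mixed libraries. The cell mixture differed widely between libraries. The summed level of 7 fibroblast markers ranged from 543 to 10326 CPM, that of 9 smooth muscle and pericyte markers from 607 to 6641 CPM, that of 8 blood endothelial markers from 1181 to 6961 CPM and that of 7 epithelial markers from 1176 to 18422 CPM. Hematopoietic markers summed to 2.34 to 61.2 CPM and plasma cell markers to 194 to 1202 CPM. The mesothelial marker Msln had no count in any library, and the mesothelial list summed to at most 3.64 CPM. The library Hoil1-/- Il4ra f/f replicate 1 was the lowest of all 12 in fibroblast, smooth muscle and endothelial markers, with an epithelial marker level of 17610.5 CPM. In bulk libraries such as these, fewer cells of a type and less RNA per cell cannot be told apart.

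On the GRCm38 build, Pdgfra lies on chr5:75152292-75198215 on the plus strand, Bmp5 on chr9:75775364-75900310 on the plus strand, Wnt5a on chr14:28504750-28527448 on the plus strand and Foxl1 on chr8:121127940-121130644 on the plus strand. On the minus strand are Grem1 at chr2:113746164-113758646, Bmp4 at chr14:46383520-46390669, Wnt2b at chr3:104945272-104961921, Rspo3 at chr10:29452416-29535867 and Gli1 at chr10:127329882-127341974. The counts are of exons, whose merged length runs from 2248 bases in Bmp4 to 10024 bases in Pdgfra. The 250 bases before the start site were held for 5 of the 9 genes in the RefSeq promoter table (GRCm38.p6). Those of Pdgfra, Grem1, Bmp4 and Bmp5 are shown because the first 3 moved together across libraries while Bmp5 did not. Each ends at the base before the start site of the RefSeq table, which is not always that of the gene bounds above, which come from GENCODE M21. The Pdgfra stretch ends before its GENCODE start, and most of the Wnt2b stretch lies inside the GENCODE gene, so it is not printed. Capitals mark the GC-rich SMAD motif GGCGCC.
Pdgfra: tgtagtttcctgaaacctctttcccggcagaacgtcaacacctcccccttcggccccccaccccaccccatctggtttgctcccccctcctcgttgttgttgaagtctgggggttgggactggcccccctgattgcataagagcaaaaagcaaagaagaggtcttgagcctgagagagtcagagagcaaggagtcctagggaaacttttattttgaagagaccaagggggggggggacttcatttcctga
Grem1: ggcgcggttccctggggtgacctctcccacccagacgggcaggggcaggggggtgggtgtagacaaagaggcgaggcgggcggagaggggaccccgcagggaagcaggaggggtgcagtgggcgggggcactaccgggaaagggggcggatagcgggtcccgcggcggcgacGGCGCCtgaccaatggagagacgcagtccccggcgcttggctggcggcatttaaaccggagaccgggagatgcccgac
Bmp4: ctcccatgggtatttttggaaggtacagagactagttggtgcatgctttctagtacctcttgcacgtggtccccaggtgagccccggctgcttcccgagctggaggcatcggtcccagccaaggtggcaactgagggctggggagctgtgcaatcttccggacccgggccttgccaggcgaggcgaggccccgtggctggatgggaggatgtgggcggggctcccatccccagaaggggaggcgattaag
Bmp5: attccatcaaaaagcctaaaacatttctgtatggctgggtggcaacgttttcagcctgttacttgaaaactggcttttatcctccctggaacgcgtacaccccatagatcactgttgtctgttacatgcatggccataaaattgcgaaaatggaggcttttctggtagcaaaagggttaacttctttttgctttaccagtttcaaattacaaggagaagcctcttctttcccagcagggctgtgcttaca
The stretches lie at chr5:75152001-75152250 (plus strand) for Pdgfra, chr2:113758649-113758898 (minus) for Grem1, chr14:46390670-46390919 (minus) for Bmp4, chr3:104961710-104961959 (minus) for Wnt2b and chr9:75775115-75775364 (plus) for Bmp5.

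The promoters differed more in base composition than in the motifs searched. The share of G and C was 80.8% in Wnt2b, 72.0% in Grem1, 63.2% in Bmp4, 54.4% in Pdgfra and 42.8% in Bmp5, against a median of 52.4% over 32851 promoters of the same length. Wnt2b held 36 CpG dinucleotides and Grem1 24, against a median of 6, and Pdgfra and Bmp5 held 4 each. Motifs were searched on both strands. GGCGCC, a palindrome, occurred in the promoters of Grem1 (78 to 73 bases upstream) and Wnt2b (187 to 182 and 143 to 138 bases upstream of the RefSeq start) and in 9.59% of all promoters. The GLI motif GACCACCCA (0.225% of all promoters), the TCF/LEF motif CTTTGAT (3.21%) and the TATA motif TATAAA (12.4%) were in none of the 5, which says only that these letters are not in these windows.

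Bmp4, Grem1, Wnt2b and Pdgfra were the most abundant of the 9 genes, and Foxl1 was almost undetected. Compared per kilobase of exon, the median over the 12 CD45- libraries was 9.77 CPM per kilobase for the BMP ligand Bmp4, 4.66 for the BMP antagonist Grem1, 4.25 for the canonical Wnt ligand Wnt2b, 2.69 for the receptor gene Pdgfra, 1.41 for the Hedgehog effector Gli1, 0.646 for the BMP ligand Bmp5, 0.645 for the R-spondin Rspo3, 0.285 for the non-canonical Wnt ligand Wnt5a and 0 for Foxl1. Only the first step of this order held in every library, Bmp4 being above Grem1 in 12 of 12. Grem1 was above Wnt2b in 8 of 12, Wnt2b above Pdgfra, Pdgfra above Gli1 and Gli1 above Bmp5 in 9 of 12 each, and Bmp5 above Rspo3 and Rspo3 above Wnt5a in only 5 of 12 each, so that the levels of Bmp5, Rspo3 and Wnt5a were not separable. Of the 108 values of the 9 genes in the 12 libraries, 20 were 0 counts and none lay between 1 and 4 counts, the lowest count above 0 being 5. No molecular identifiers are described for these libraries, so that a count is not a molecule and a 0 covers counting error only. At these depths 3 counts corresponded to 0.0391 to 0.488 CPM.

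**Figure D1:**
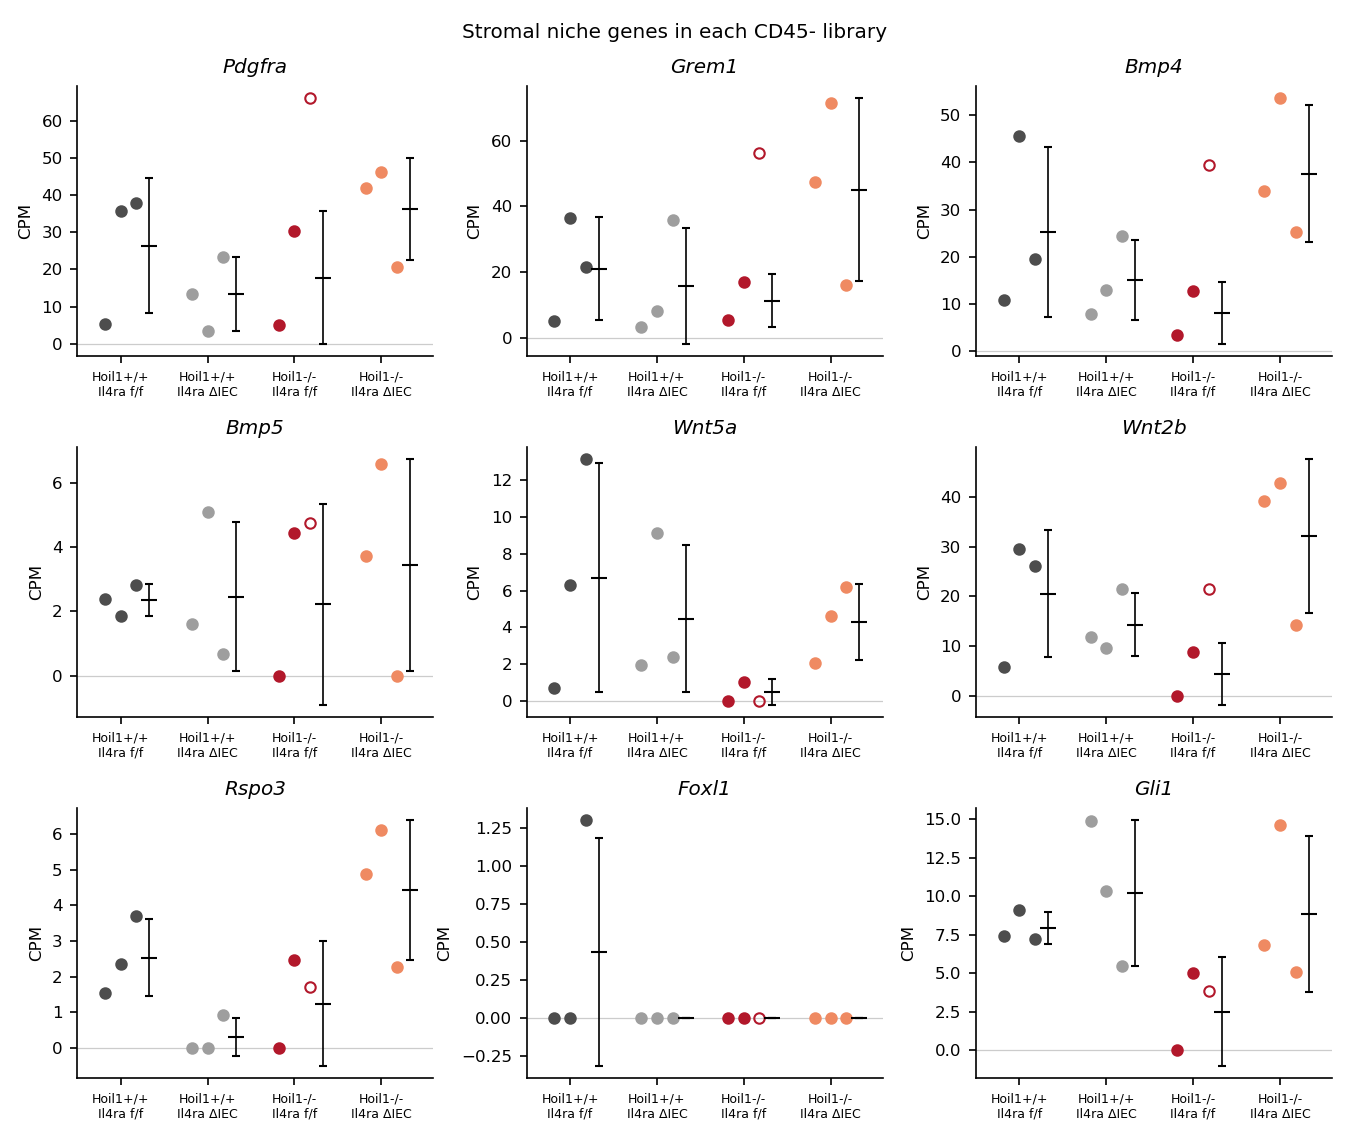
CPM of each of the 9 genes (vertical axes, linear and different in scale) in each CD45- library, by genotype. Points are libraries, the open point is the library that the study's sample list leaves out, and the bar gives the mean ± SD of the others. The points of most genotypes overlap in most genes, and Foxl1 has counts in 1 library. Bmp4 and Rspo3 stand higher in all Hoil1-/- than in all Hoil1+/+ Il4ra ΔIEC libraries, as 6.16% of all genes do.

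Pdgfra encodes a receptor for platelet-derived growth factors and marks most mucosal mesenchymal cells. Its level was 5.46, 35.7 and 37.9 CPM in Hoil1+/+ Il4ra f/f, 13.5, 3.43 and 23.5 CPM in Hoil1+/+ Il4ra ΔIEC, 5.18, 30.4 and (left-out library) 66.0 CPM in Hoil1-/- Il4ra f/f and 41.9, 46.1 and 20.7 CPM in Hoil1-/- Il4ra ΔIEC. Low and high libraries occurred within the same genotype, and the genotypes overlapped. Hoil1-/- against Hoil1+/+ gave a log2 difference of -0.60 (SE 0.94) in Il4ra f/f mice and 1.43 (SE 0.84) in Il4ra ΔIEC mice, with adjusted p = 0.791 and 0.653 by edgeR's quasi-likelihood test.

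Grem1, which encodes the BMP antagonist gremlin 1, had a like spread. Its values were 5.18, 36.4 and 21.5 CPM in Hoil1+/+ Il4ra f/f, 3.23, 8.06 and 35.9 CPM in Hoil1+/+ Il4ra ΔIEC, 5.55, 17.1 and (left-out library) 56.3 CPM in Hoil1-/- Il4ra f/f, and 47.5, 71.6 and 16.1 CPM in Hoil1-/- Il4ra ΔIEC. The highest values stood in Hoil1-/- Il4ra ΔIEC, but its lowest library, at 16.1 CPM, lay within the range of both Hoil1+/+ genotypes. The log2 difference between Hoil1 genotypes was -0.92 (SE 1.04, adjusted p = 0.687, edgeR) in Il4ra f/f mice and 1.5 (SE 0.92, adjusted p = 0.655, edgeR) in Il4ra ΔIEC mice.

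Among the BMP ligands, Bmp4 gave the most separated values. It was at 10.8, 45.4 and 19.6 CPM in Hoil1+/+ Il4ra f/f, at 7.84, 13 and 24.4 CPM in Hoil1+/+ Il4ra ΔIEC, at 3.46, 12.7 and (left-out library) 39.5 CPM in Hoil1-/- Il4ra f/f and at 33.9, 53.5 and 25.2 CPM in Hoil1-/- Il4ra ΔIEC. All 3 Hoil1-/- Il4ra ΔIEC libraries were above all 3 Hoil1+/+ Il4ra ΔIEC libraries, the nearest at 25.2 and 24.4 CPM. Of all genes, 6.16% were likewise higher without overlap in this comparison. The log2 difference was -1.67 (95% interval -3.33 to -0.01, adjusted p = 0.378, edgeR) in Il4ra f/f mice and 1.32 (-0.10 to 2.74, adjusted p = 0.628) in Il4ra ΔIEC mice, and their difference, the interaction, was 2.99 (0.81 to 5.18, adjusted p = 0.163). Bmp5, the second BMP ligand, was far lower, at 1.85 to 2.82 CPM in Hoil1+/+ Il4ra f/f, 0.678 to 5.08 CPM in Hoil1+/+ Il4ra ΔIEC, 0 to 4.74 CPM in Hoil1-/- Il4ra f/f and 0 to 6.57 CPM in Hoil1-/- Il4ra ΔIEC. It had no count in Hoil1-/- Il4ra f/f replicate 1 and in Hoil1-/- Il4ra ΔIEC replicate 3, and its log2 differences of -0.12 (SE 1.86) and 0.54 (SE 1.67) were smaller than their errors (adjusted p = 0.994 and 0.968, edgeR).

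The Wnt ligand Wnt2b, which acts through beta-catenin, was the most abundant Wnt gene of the set. It was at 5.88, 29.6 and 26.2 CPM in Hoil1+/+ Il4ra f/f, at 11.9, 9.55 and 21.4 CPM in Hoil1+/+ Il4ra ΔIEC, at 0, 8.74 and (left-out library) 21.6 CPM in Hoil1-/- Il4ra f/f and at 39.1, 42.7 and 14.3 CPM in Hoil1-/- Il4ra ΔIEC. The genotypes overlapped. Its log2 difference between Hoil1 genotypes was -2.24 (SE 1.27, adjusted p = 0.426) in Il4ra f/f mice and 1.18 (SE 1.05, adjusted p = 0.794) in Il4ra ΔIEC mice by edgeR.

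Wnt5a, a Wnt ligand that acts mainly without beta-catenin, had the lowest mean of the 8 tested genes in Hoil1-/- Il4ra f/f. Its values there were 0, 1.01 and (left-out library) 0 CPM, against 0.701, 6.29 and 13.1 CPM in Hoil1+/+ Il4ra f/f. In the ΔIEC mice it was at 1.96, 9.11 and 2.38 CPM (Hoil1+/+) and at 2.08, 4.61 and 6.18 CPM (Hoil1-/-). The Il4ra f/f genotypes overlapped through 1 library, Hoil1+/+ replicate 1, and the ΔIEC genotypes throughout. The log2 difference of -3.68 (95% interval -7.26 to -0.09) in Il4ra f/f mice did not pass the threshold (adjusted p = 0.378, edgeR), and that in Il4ra ΔIEC mice was -0.03 (SE 1.24, adjusted p = 1.0).

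Rspo3 encodes an R-spondin, which enhances Wnt signalling through LGR receptors. It was at 1.54, 2.34 and 3.69 CPM in Hoil1+/+ Il4ra f/f, at 0, 0 and 0.925 CPM in Hoil1+/+ Il4ra ΔIEC, at 0, 2.48 and (left-out library) 1.71 CPM in Hoil1-/- Il4ra f/f and at 4.88, 6.12 and 2.28 CPM in Hoil1-/- Il4ra ΔIEC. The Hoil1-/- Il4ra ΔIEC libraries were all above the Hoil1+/+ Il4ra ΔIEC libraries, of which 2 had no count. This held for 6.16% of all genes. The fitted log2 difference there, 3.64 (95% interval -0.36 to 7.64), rests on those 0 counts and did not pass the threshold (adjusted p = 0.628, edgeR).

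Gli1, a transcription factor that is itself induced by Hedgehog signalling, was detected in 11 of 12 libraries. It was at 7.43, 9.13 and 7.20 CPM in Hoil1+/+ Il4ra f/f, the smallest spread (coefficient of variation 13.3%) of any gene in a group with counts, at 14.9, 10.3 and 5.45 CPM in Hoil1+/+ Il4ra ΔIEC, at 0, 4.99 and (left-out library) 3.81 CPM in Hoil1-/- Il4ra f/f and at 6.86, 14.6 and 5.04 CPM in Hoil1-/- Il4ra ΔIEC. All Hoil1-/- Il4ra f/f libraries lay below all Hoil1+/+ Il4ra f/f libraries, while the ΔIEC genotypes overlapped. In the 11 libraries tested, 18.2% of all genes were likewise lower without overlap in Il4ra f/f mice. The log2 differences were -1.68 (SE 1.23, adjusted p = 0.514, edgeR) in Il4ra f/f mice and -0.17 (SE 1.04, adjusted p = 0.989) in Il4ra ΔIEC mice. Foxl1, the forkhead factor of subepithelial telocytes, had 36 counts (1.30 CPM) in replicate 3 of Hoil1+/+ Il4ra f/f and none in the other 11 libraries. By counting error alone, a count of 0 allows up to 0.488 CPM in the shallowest of them. As a count is not a molecule, the true limit is not known and may be higher. Nothing can therefore be said of Foxl1 by genotype, and it was not tested.

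No member passed the threshold in any comparison of genotypes. With edgeR's quasi-likelihood test, 0 of 8 genes were called for the Hoil1 effect averaged over Il4ra genotypes (0.0182% of all genes tested were called), 0 of 8 for the Hoil1 effect in Il4ra f/f mice (0.0365%), 0 of 8 for that in Il4ra ΔIEC mice (0.00608%), 0 of 8 for the Il4ra effect averaged over Hoil1 genotypes (0.0%) and 0 of 8 for the interaction (0.0%). At an unadjusted p under 0.05 there were 2 genes in Il4ra f/f mice, Bmp4 and Wnt5a (13.1% of all genes), and 1 in the interaction, Bmp4 (20.7% of all genes), and none in the other comparisons. DESeq2 and edgeR's likelihood ratio test also called none of the 8 except Bmp4 in the interaction, with log2 values of 2.95 (adjusted p = 0.0399, where 9.78% of all genes were called) and 3.0 (adjusted p = 0.048, where 7.43% were). Over the alternatives other than leaving out libraries, the interaction of Bmp4 had adjusted p values of 0.0399 to 0.643, and its value was 1.77 with all 12 libraries and 1.49 with the fibroblast marker level in the fit. Leaving out Hoil1-/- Il4ra f/f replicate 2, which leaves replicate 1 with its 0 counts alone in that genotype, gave 1 call for the averaged Hoil1 effect (Gli1, with 0.988% of all genes called) and 2 each (Wnt2b and Gli1) for the Hoil1 effect in Il4ra f/f mice (2.71%), the Il4ra effect (1.26%) and the interaction (4.13%). The intervals are wide, so that no difference and a difference of several log2 units both lie within most of them.

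**Figure D2:**
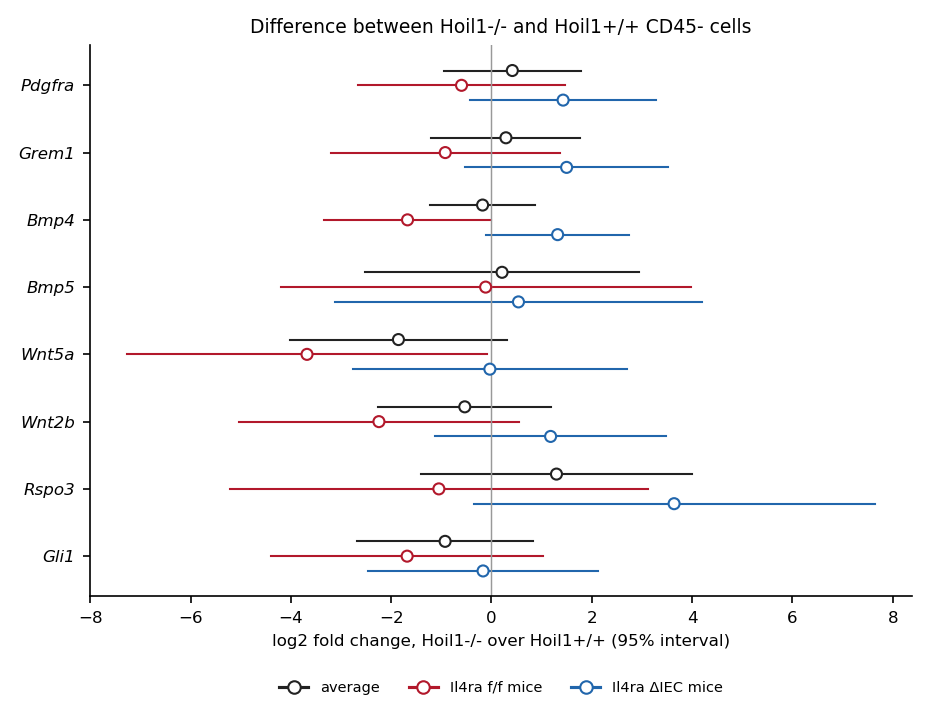
Log2 fold change between Hoil1-/- and Hoil1+/+ CD45- cells (horizontal axis) with its 95% interval for the 8 tested genes, averaged over Il4ra genotypes and within each of them; open points did not pass the threshold. The estimates in Il4ra f/f mice lie below 0 for all 8 genes, those in Il4ra ΔIEC mice above 0 for 6, and all intervals but those of Bmp4 and Wnt5a in Il4ra f/f mice include 0.

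Most estimates lay below 0 in Il4ra f/f and above 0 in Il4ra ΔIEC mice, none of them past the threshold. Wnt5a and Gli1 were below 0 in both. The median log2 difference of the 8 genes was -1.36 in Il4ra f/f mice, with 0 of 8 above 0, where the median of all genes was -0.17, and 1.25 in Il4ra ΔIEC mice, with 6 of 8 above 0, where the median of all genes was 0.06. Averaged over Il4ra genotypes it was 0.02 (all genes -0.08). The Il4ra effect had a median of 0.79 (all genes 0.06) and the interaction a median of 2.71 with 8 of 8 above 0 (all genes 0.29). These comparisons share libraries and are not independent of each other. With all 12 libraries the medians were -0.66 in Il4ra f/f mice, with 3 of 8 above 0, and 1.52 for the interaction. In the 11 libraries tested, 1 of the 8 genes was lower without overlap in Hoil1-/- Il4ra f/f mice (Gli1, with 18.2% of all genes) and 0 were higher (15.8% of all genes), and 2 were higher without overlap in Hoil1-/- Il4ra ΔIEC mice (Bmp4 and Rspo3, with 6.16% of all genes) and 0 lower (5.4%).

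Fibroblast, smooth muscle and blood endothelial markers had medians of the same signs in these comparisons. The 7 fibroblast markers had a median log2 difference of -0.96 in Il4ra f/f mice, with 0 of 7 above 0, of 1.86 in Il4ra ΔIEC mice, with 7 of 7 above 0, and of 2.83 in the interaction. The medians were -1.84, 0.65 and 2.79 for smooth muscle and pericyte markers and -1.25, 0.73 and 2.06 for blood endothelial markers, whereas the 7 epithelial markers had 1.81, -1.40 and -3.21. Other stromal lists were mixed. The trophocyte markers, given below, had medians of the same signs as fibroblasts in both Il4ra genotypes. The 2 markers of interstitial cells of Cajal had 0.51, 0.08 and -0.43 and the 3 tested telocyte markers -0.06, -0.63 and -0.56. The Cajal markers were not particular to CD45- cells, with median sums of 48.8 CPM there and 63.9 CPM in CD45+ libraries, scaled over all libraries. The summed fibroblast level was 659 to 5439 CPM in Hoil1+/+ Il4ra f/f, 890 to 2911 CPM in Hoil1+/+ Il4ra ΔIEC, 543 to 9028 CPM in Hoil1-/- Il4ra f/f and 3011 to 10326 CPM in Hoil1-/- Il4ra ΔIEC. None of these markers was called in the 3 comparisons. When the fibroblast marker level entered the fit as a covariate, the estimates of Pdgfra and Grem1 changed sign in both Il4ra genotypes and in the interaction, to 0.29 and 0.06 in Il4ra f/f mice, -0.24 and -0.16 in Il4ra ΔIEC mice and -0.53 and -0.21 in the interaction. Bmp4, Wnt5a, Rspo3 and Gli1 kept their signs, with -1.26, -3.17, -1.44 and -1.85 in Il4ra f/f mice and 0.23, -1.42, 2.14 and -1.23 in Il4ra ΔIEC mice. Without the covariate, Bmp4 was at -1.67 and 1.32, neither called. Bmp5 and Wnt2b were at -0.35 and -2.03 in Il4ra f/f mice and changed sign in Il4ra ΔIEC mice, to -0.91 and -0.90. In that fit 0 of 8 genes were called in any genotype comparison. Of all genes, 0.00608% were called for the averaged Hoil1 effect, 0.079% in Il4ra f/f and 0.0122% in Il4ra ΔIEC mice and 0.0% for the Il4ra effect and the interaction. The part of the smooth muscle, endothelial and epithelial markers was not tested.

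Pdgfra followed the fibroblast marker level of the libraries within genotypes. For each unit of log2 of the summed fibroblast marker level, the log2 level of Pdgfra was higher by 1.02 (SE 0.14, adjusted p = 0.00947, edgeR with a mean for each genotype), that is, nearly in proportion. It was the 1 gene of 8 that passed, where 1.73% of all genes did. The slopes of Grem1 (0.92, SE 0.23, adjusted p = 0.0636), Wnt2b (1.06, SE 0.28, adjusted p = 0.0713) and Bmp4 (0.58, SE 0.17, adjusted p = 0.0958) passed only without adjustment, and with all 12 libraries, with DESeq2 and with the likelihood ratio test all 4 passed, where 9.5%, 13.7% and 9.82% of all genes did. Rspo3 (1.12, SE 0.62), Wnt5a (0.65, SE 0.58), Bmp5 (0.48, SE 0.75) and Gli1 (0.47, SE 0.41) did not, and their intervals included 0. The median slope of the 8 genes was 0.79, all 8 being above 0, against 0.04 over all genes. The call of Pdgfra was lost without Hoil1+/+ Il4ra f/f replicate 1 (slope 1.04, adjusted p = 0.0786), a library with the second lowest fibroblast level, and leaving out single libraries gave 0 to 2 calls.

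**Figure D3:**
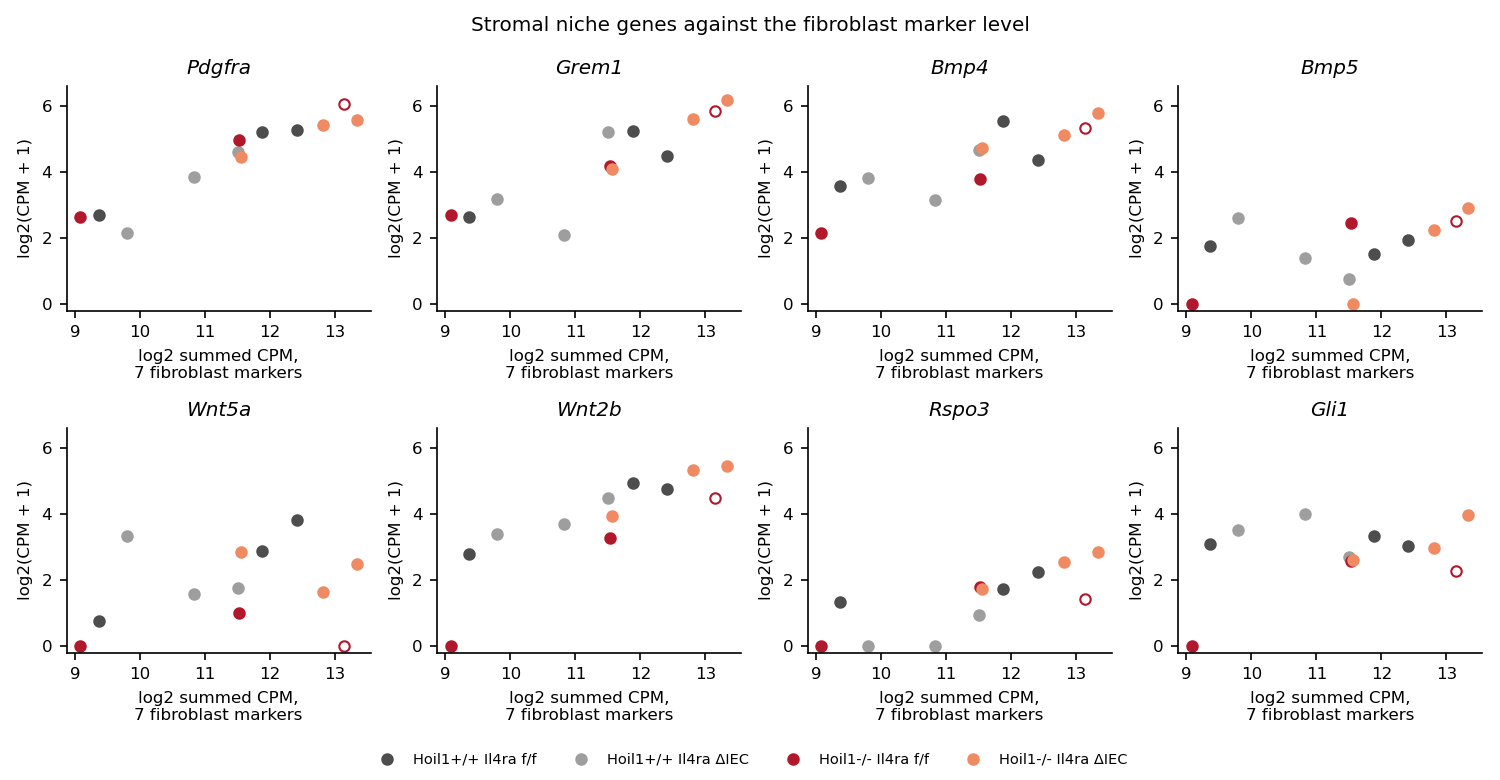
Log2(CPM + 1) of the 8 tested genes (vertical axes) against the log2 summed CPM of 7 fibroblast markers (horizontal axes) in the 12 CD45- libraries, coloured by genotype; the open point is the library left out of the tests. Pdgfra, Grem1, Wnt2b and Bmp4 are higher where the fibroblast level is higher, Gli1 stays nearly level apart from 1 library without counts, and Wnt5a and Bmp5 scatter.

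Expressed relative to the fibroblast markers, the spread of Pdgfra shrank. Its CPM differed 19.2-fold between the lowest and the highest of the 12 libraries, and its CPM per 1000 CPM of fibroblast markers 2.67-fold, from 3.86 to 10.3. For Grem1 the corresponding spreads were 22.2-fold and 6.92-fold, and for Bmp4 15.5-fold and 4.55-fold. The other tested genes had libraries without counts, so that no fold over all libraries is given. Within Hoil1+/+ Il4ra f/f, the spread grew from 1.27-fold to 8.51-fold for Gli1, 1.53-fold to 7.39-fold for Bmp5 and 2.39-fold to 3.76-fold for Rspo3. There it fell from 18.7-fold to 2.27-fold for Wnt5a and from 5.03-fold to 1.85-fold for Wnt2b. Other genotypes differed from this in part. In Hoil1-/- Il4ra ΔIEC the spread of Wnt5a grew from 2.97-fold to 7.09-fold. That of Gli1 fell there from 2.90-fold to 1.76-fold and that of Rspo3 from 2.69-fold to 1.28-fold. In Hoil1+/+ Il4ra ΔIEC the spread grew from 4.65-fold to 12.5-fold for Wnt5a and from 2.73-fold to 6.18-fold for Gli1. By genotype, Pdgfra stood at 6.98 to 9.46 CPM per 1000 CPM of fibroblast markers in Hoil1+/+ Il4ra f/f, 3.86 to 8.06 in Hoil1+/+ Il4ra ΔIEC, 7.31 to 10.3 in Hoil1-/- Il4ra f/f and 4.46 to 6.86 in Hoil1-/- Il4ra ΔIEC, ranges that overlapped between Hoil1 genotypes. In Il4ra f/f mice they did so through the left-out library alone, at 7.31. The 2 tested Hoil1-/- libraries, at 9.54 and 10.3, were above the Hoil1+/+ libraries, the nearest of which was at 9.46. In CPM, 15.8% of all genes were higher without overlap in the same libraries. The share among values scaled to fibroblast markers was not computed.

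More genes were called on the endothelial level. On the blood endothelial marker level, 3 of 8 genes passed, all with positive slopes, where 12.3% of all genes did and 6.58% with a positive slope. They were Grem1 (1.72, SE 0.22, adjusted p = 0.000927, edgeR), Bmp4 (1.04, SE 0.22, adjusted p = 0.00961) and Pdgfra (1.37, SE 0.35, adjusted p = 0.0271). Leaving out single libraries gave 2 to 4 calls. Pdgfra was lost without Hoil1+/+ Il4ra f/f replicate 1, Hoil1+/+ Il4ra ΔIEC replicate 2 or Hoil1+/+ Il4ra ΔIEC replicate 3, and Bmp4 without Hoil1+/+ Il4ra f/f replicate 2. The fibroblast markers themselves followed the endothelial level, 6 of 7 of them passing, with a median slope of 1.32, so the slopes do not separate the cell types.

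On the smooth muscle and pericyte level no gene of the 8 passed by edgeR's quasi-likelihood test (0.0% of all genes), 6 did so without adjustment (10.9% of all genes), DESeq2 called Wnt2b and Gli1 (5.24% of all genes) and the likelihood ratio test Wnt2b (2.18%). In the 11 libraries tested the steepest slopes on this level were 3.0 (SE 1.29) for Rspo3, 2.74 (SE 1.04) for Wnt5a, 2.37 (SE 0.68) for Wnt2b, 2.20 (SE 1.48) for Bmp5 and 1.97 (SE 0.78) for Gli1, but this order did not hold with all 12 libraries, where they were 1.54 for Rspo3, 3.11 for Wnt5a, 0.61 for Wnt2b, 0.76 for Bmp5 and 0.96 for Gli1, next to 0.70 for Grem1 and 0.64 for Pdgfra. The smooth muscle and pericyte level was lowest in Hoil1-/- Il4ra f/f replicate 1, the library without counts of Bmp5, Wnt5a, Wnt2b, Rspo3, Foxl1 and Gli1.

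**Figure D4:**
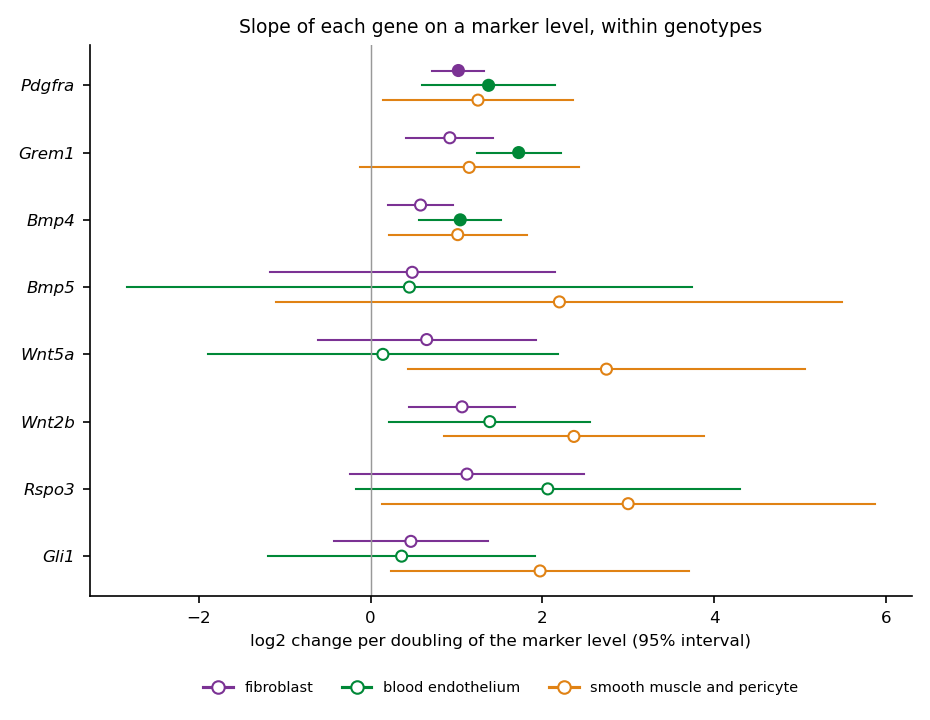
Slope of each gene on the summed level of fibroblast, blood endothelial or smooth muscle and pericyte markers (horizontal axis, log2 units per log2 unit) with its 95% interval, within genotypes; filled points passed the threshold. Pdgfra is filled for fibroblasts, and Pdgfra, Grem1 and Bmp4 for endothelium.

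The genes could be grouped into 5 that varied together across libraries and others that did not, a grouping made after the values were seen and given as a description. Over the 12 CD45- libraries, the 10 pairs among Pdgfra, Grem1, Bmp4, Wnt2b and Rspo3 had Pearson r of 0.69 to 0.90 for log2(CPM + 1). The 15 pairs that joined one of them to Bmp5, Wnt5a or Gli1 had r of 0.08 to 0.74. These ranges overlapped. In the 11 libraries tested they also did, at 0.69 to 0.90 for the first and 0.25 to 0.78 for the other. Only without Hoil1-/- Il4ra f/f replicate 1, the library with 6 genes at 0, were they apart, at 0.64 to 0.93 and -0.31 to 0.27. The libraries share their cell mixture and depth with every gene in them. Ratios between genes per kilobase remove a shared factor only where it acts alike on both genes. The slopes of Grem1 and Bmp4 were 0.92 and 0.58 on the fibroblast level and 1.72 and 1.04 on the endothelial level. Their ratio may thus still follow the cell mixture. Grem1 over Bmp4 was 0.223 to 0.870 with a median of 0.660, never above 1. That ratio was 0.260 to 0.596 in Hoil1+/+ Il4ra f/f and 0.731 to 0.870 in Hoil1-/- Il4ra f/f, while in the ΔIEC mice it overlapped, at 0.223 to 0.797 and 0.346 to 0.759. Wnt2b over Pdgfra was 1.65 to 2.57 in Hoil1+/+ Il4ra f/f and 0 to 0.780 in Hoil1-/- Il4ra f/f, and 2.10 to 6.64 and 1.65 to 2.23 in the ΔIEC mice. They are 2 of 5 ratios computed, and none was tested. In Il4ra f/f mice, Wnt2b over Bmp4 and Grem1 over Pdgfra overlapped between Hoil1 genotypes. Wnt5a over Wnt2b was 0.0639 to 0.269 in Hoil1+/+ and 0 to 0.0622 in Hoil1-/- Il4ra f/f, where replicate 1 gave none. The 0 of Wnt2b over Pdgfra is that library, without counts of Wnt2b. Of single genes, 15.8% were higher and 18.2% lower without overlap in Hoil1-/- Il4ra f/f, in the 11 libraries tested. The share among all ratios was not computed.

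The genes most like each member in the 12 libraries, by Pearson r of log2(CPM + 1) among 16445 other tested genes, differed between members. For Pdgfra they were Shisa3 (r = 0.978), Adamts2 (0.975), which encodes a procollagen peptidase, and Htra3 (0.970). For Grem1 they were Fmnl1 (0.977), Plscr3 (0.977) and Tmod2 (0.968), and for Bmp4 Rab12 (0.979), Tmem204 (0.975) and Srgn (0.974). For Wnt2b they were Fam57b (0.987), Col16a1 (0.982), a collagen gene, and Hspa12b (0.976), and for Rspo3 Sertad4 (0.935), Klhl30 (0.923) and Bgn (0.922), which encodes the matrix proteoglycan biglycan. For Wnt5a they were Fmod (0.924), which encodes the matrix proteoglycan fibromodulin, Klhl38 (0.908) and Chst3 (0.90), for Gli1 Cdk9 (0.935), Dmd (0.927) and Hdhd5 (0.917), and for Bmp5 Tbce (0.929), Luc7l2 (0.869) and Flnc (0.855). Wnt2b had 266 genes with r over 0.9, Bmp4 216, Grem1 113 and Pdgfra 94, whereas Rspo3 had 13, Gli1 6, Wnt5a 3 and Bmp5 1.

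The niche genes were measured mainly in the CD45- cells. In the test of the sort fractions over 21 libraries, 8 of 9 genes were called, all higher in CD45- cells, where 49.6% of all 18778 genes were called and 25.1% were higher. Both fractions were sorted from the same cell mixtures, so that libraries may share a mouse. The labels do not tie them, and the test took the 21 libraries as independent. CPM in this comparison were scaled over all 24 libraries and are therefore somewhat lower than those above. Pdgfra was at 2.92 to 55.9 CPM in the 12 CD45- libraries and at 0 to 11.5 CPM in the 12 CD45+ libraries, a log2 difference of 4.94 (SE 0.70, adjusted p = 2.06e-05, edgeR). Grem1 was at 2.75 to 65.3 CPM against 0 to 3.62 CPM, a log2 difference of 5.34 (SE 0.96, adjusted p = 0.000192), and Bmp4 at 2.98 to 48.9 CPM against 0 to 5.84 CPM, a log2 difference of 3.55 (SE 0.37, adjusted p = 8.30e-07). These ranges touch through CD45+ libraries that the sample list leaves out. Within the list, every CD45- library was above every CD45+ library for these 3 genes, the highest CD45+ values being 2.48, 1.03 and 2.95 CPM.

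For the other genes, whole genotypes of the CD45+ fraction had no count, so ranges are given in place of a fold. Wnt2b was at 0 to 39.0 CPM in CD45- and at 0 to 1.28 CPM in CD45+ cells, with counts in 4 of 12 CD45+ libraries (adjusted p = 5.57e-05, edgeR), and Gli1 at 0 to 13.3 CPM against 0 to 0.444 CPM, with counts in 1 CD45+ library (adjusted p = 9.55e-05). Rspo3 was at 0 to 5.59 CPM against 0 to 0.467 CPM, also with counts in 1 CD45+ library (adjusted p = 0.00132). Bmp5 was at 0 to 6.00 CPM against 0 to 1.05 CPM, with counts in 4 CD45+ libraries (adjusted p = 0.00276), and Wnt5a at 0 to 11.4 CPM against 0 to 3.37 CPM, with counts in 6 (adjusted p = 0.00331). Wnt5a overlapped most, 6 of 11 CD45- libraries lying below the highest CD45+ library, against 3 of 11 for Bmp5 and Rspo3 and 1 of 11 for Wnt2b and Gli1. Foxl1 had 32 and 6 counts in the CD45+ libraries Hoil1+/+ Il4ra f/f replicates 2 and 3 and no count in the other 10, and gave no usable estimate. Without the CD45- library Hoil1-/- Il4ra f/f replicate 2 only Pdgfra, Grem1 and Bmp4 were called, 3 of the 8, the CD45- cells of that genotype then being represented by the library without counts of the other 5, and Rspo3 was also lost without Hoil1+/+ Il4ra ΔIEC replicate 3. Fibroblast markers summed to 19.8 to 258 CPM in CD45+ libraries against 469 to 9428 CPM in CD45- libraries on the same scale, and the part of such cells in the CD45+ values was not tested.

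**Figure D5:**
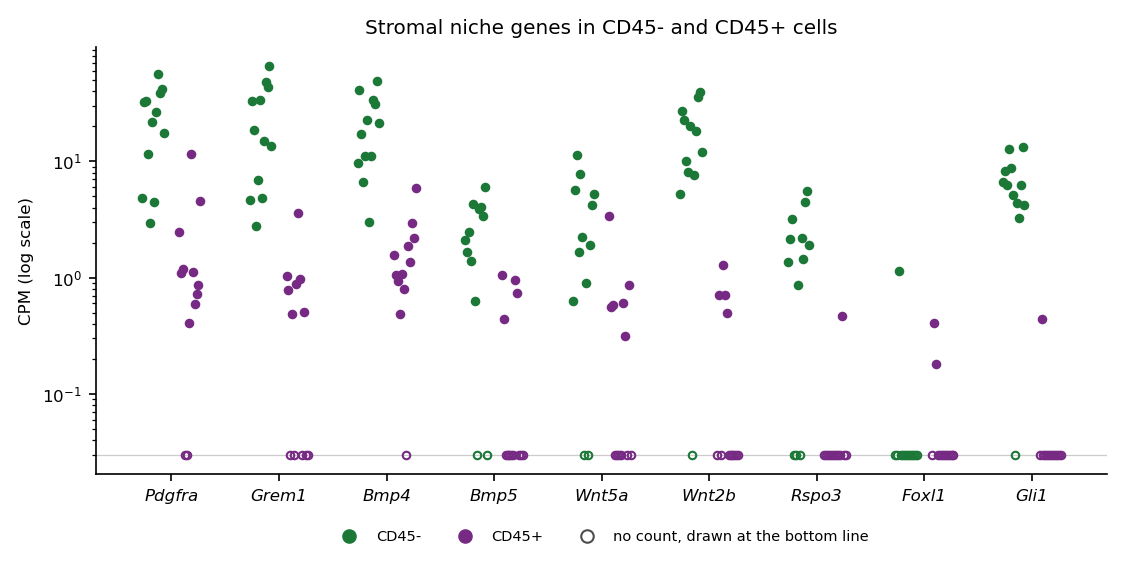
CPM on a log axis, scaled over all 24 libraries, of each gene in the 12 CD45- (green) and 12 CD45+ libraries (purple); open points on the bottom line are libraries without counts. Pdgfra, Grem1, Bmp4, Wnt2b and Gli1 stand mostly above the CD45+ libraries, Foxl1 is without counts in nearly all libraries, and Wnt5a and Bmp5 overlap in part.

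The wider Wnt, BMP, Hedgehog and PDGF pathways, 137 genes in 14 lists, gave no genotype call either. Of the 115 genes that passed the filter, edgeR's quasi-likelihood test called 0 in each of the 5 genotype comparisons, while 9, 16, 12, 7 and 25 had an unadjusted p under 0.05 for the averaged Hoil1 effect, the Hoil1 effect in Il4ra f/f mice, that in Il4ra ΔIEC mice, the Il4ra effect and the interaction, where 5.28%, 13.1%, 7.66%, 5.9% and 20.7% of all genes did. The smallest adjusted p values were those of Hhip (0.285), Bambi (0.168), Fzd5 (0.603), Sostdc1 (0.783) and Nkd1 (0.106) in that order, genes named here after their values were seen. In the sort fractions 79 of 117 were higher in CD45- cells and 10 lower, where 25.1% of all genes were higher and 49.6% were called.

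Among Wnt inhibitors, of which 12 of 16 were tested, the most abundant per kilobase were Sfrp1, which binds Wnt ligands, and Nkd1, an intracellular antagonist that is itself a Wnt target. Sfrp1 ranged from 1.64 to 192 CPM over the CD45- libraries tested, and its log2 differences between Hoil1 genotypes were -1.53 (SE 1.22) in Il4ra f/f and 1.31 (SE 1.05) in Il4ra ΔIEC mice. Its slope on the fibroblast level was 1.33 (SE 0.19, adjusted p = 0.0115, edgeR). Nkd1 ranged from 5.64 to 85.7 CPM, with log2 differences of -2.41 (SE 0.58, adjusted p = 0.205) and 1.44 (SE 0.48, adjusted p = 0.603) and an interaction of 3.86 (SE 0.75, adjusted p = 0.106), the pathway gene nearest to the threshold. The list's median was -0.95 in Il4ra f/f and 0.98 in Il4ra ΔIEC mice, the same signs as for the niche genes.

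BMP inhibitors other than Grem1 showed the same signs, 12 of 13 tested genes being below 0 in Il4ra f/f mice (median -1.12) and 11 of 13 above 0 in Il4ra ΔIEC mice (median 0.61), with none called. Fstl1, a follistatin-like secreted protein, ranged from 38.4 to 296 CPM and had a slope of 0.60 (SE 0.09, adjusted p = 0.0122, edgeR) on the fibroblast level. Nbl1, a BMP antagonist of the DAN family, ranged from 50.5 to 134 CPM and had a slope of 0.50 (SE 0.14, adjusted p = 0.0393) on the endothelial level. The BMP receptor gene Acvrl1, which is known mainly from endothelium, ranged from 90.7 to 764 CPM and followed the endothelial level with a slope of 1.08 (SE 0.14, adjusted p = 0.000859), and the BMP targets Id1 and Id3 ranged from 50.5 to 212 CPM and from 81.2 to 347 CPM. The common mediator Smad4 stayed between 63.3 and 99.6 CPM. The 8 other BMP ligands tested had medians of -0.13 and 0.34, and the most abundant per kilobase were Bmp2, at 4.74 to 38.2 CPM, and Bmp8a, at 0 to 29.3 CPM, whose slope on the endothelial level was -2.93 (SE 0.87, adjusted p = 0.0494, edgeR).

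Hedgehog signalling was represented by Ihh, the ligand made by epithelial cells, and Smo, its signal transducer. Ihh ranged from 2.86 to 109.55 CPM, with log2 differences between Hoil1 genotypes of 1.14 (SE 0.93, adjusted p = 0.551) in Il4ra f/f and -2.59 (SE 0.89, adjusted p = 0.603) in Il4ra ΔIEC mice, opposite in sign to most niche genes, and its slope on the endothelial level was -1.49 (SE 0.28, adjusted p = 0.00553, edgeR). Smo ranged from 18.5 to 62.2 CPM and had slopes of 0.41 (SE 0.09, adjusted p = 0.0441) on the fibroblast and 0.63 (SE 0.15, adjusted p = 0.0185) on the endothelial level. The PDGF genes Pdgfb and Pdgfrb ranged from 23.6 to 206 CPM and from 16.2 to 163 CPM, and Pdgfb, a ligand known from endothelial cells, had a slope of 1.21 (SE 0.14, adjusted p = 0.000756) on the endothelial level. The stromal forkhead factor Foxf1 ranged from 8.0 to 93.4 CPM, well above Foxl1, with a log2 difference of -1.91 (SE 0.70, adjusted p = 0.358) in Il4ra f/f mice, and Foxf2 from 0 to 6.34 CPM.

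The 10 genes listed as epithelial Wnt targets varied little in sum. Their summed level ranged from 385 to 568 CPM over the 12 libraries, against 14.2 to 246 CPM for the 9 niche genes, and their medians were -0.23 in Il4ra f/f and -0.25 in Il4ra ΔIEC mice, with 0 of 10 called in any genotype comparison. Ccnd1 and Myc, the most abundant of them per kilobase, ranged from 102 to 306 CPM and from 25.2 to 56.5 CPM. The median of Ccnd1 was 207 CPM and that of the sum 510 CPM, so that the sum rests in large part on Ccnd1. Myc was lower in CD45- than in CD45+ cells. Over the same 12 libraries the summed epithelial markers ranged from 1176 to 18422 CPM. The sum is therefore not a level per epithelial cell, and Wnt activity in the epithelium was not tested. The stem cell receptor gene Lgr5, a Wnt target and a receptor for R-spondins, ranged from 4.73 to 48.1 CPM, with log2 differences of -0.80 (SE 0.72, adjusted p = 0.601, edgeR) and -0.69 (SE 0.64, adjusted p = 0.806), and its relative Lgr4 from 31.1 to 90.4 CPM, with 0.33 (SE 0.30, adjusted p = 0.603) and -1.04 (SE 0.27, adjusted p = 0.603). Of the Wnt receptors, Fzd4, known from endothelium, ranged from 40.3 to 293 CPM with a slope of 1.20 (SE 0.12, adjusted p = 0.000756) on the endothelial level, and the co-receptor gene Lrp5 from 134 to 299.6 CPM. The other Wnt ligands with the highest level per kilobase were Wnt3, a Paneth cell ligand, at 2.08 to 16.5 CPM, and Wnt5b, at 0 to 5.70 CPM.

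Genes of neighbouring stromal cells, the trophocyte markers Cd81 and Cd34 and the telocyte markers F3 and Sox6, were not called by genotype. Cd34 ranged from 105 to 782 CPM and Cd81 from 148 to 546 CPM, and the 4 trophocyte markers had medians of -0.77 in Il4ra f/f and 1.63 in Il4ra ΔIEC mice. F3 ranged from 0 to 30.3 CPM and Sox6 from 3.42 to 17 CPM, and the 3 tested telocyte markers had medians of -0.06 and -0.63. Cd34 had slopes of 0.66 (SE 0.11, adjusted p = 0.0249, edgeR) on the fibroblast and 1.01 (SE 0.19, adjusted p = 0.00558) on the endothelial level, and Cd81 of 0.65 (SE 0.11, adjusted p = 0.00368) on the endothelial level. Cd34 and Cd81 are also expressed by vessels and other cells, and neither F3 nor Sox6 passed in any slope. In all, 9 of the 115 pathway genes passed on the fibroblast level (1.73% of all genes), all with positive slopes, 24 on the endothelial level (12.3% of all genes), of which 22 were positive, and 0 on the smooth muscle and pericyte level, where 23 had an unadjusted p under 0.05 (10.9% of all genes).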

How the data were processed

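Ileal cells of mice of 4 genotypes were sorted into CD45- and CD45+ fractions, and mRNA was sequenced in 24 libraries, 3 per group. Per the study's methods, adapters were removed by cutadapt, STAR aligned reads to mm10, and the authors deposited raw gene counts that featureCounts made from an Ensembl annotation, in 1 table. As the columns show, these are whole counts of single libraries, not normalized. No molecular identifiers are described. Tool versions and counting options are not given in the sources used here, so reads of overlapping genes may be split. Groups came from the genotype and cell type labels. Replicates are numbered in the order of deposition, and as the labels do not say that each is 1 animal, p-values measure the spread between these samples.

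Identifiers were matched to GENCODE M21 symbols (38872 of 39056). CPM were computed with TMM factors in edgeR 4.0.16 (R 4.3.3, limma 3.58.1) over the 12 CD45- libraries, or over all 24 where stated. The main test was edgeR's quasi-likelihood test on genes passing filterByExpr (minimum count 10, total 15), two-sided, with Benjamini-Hochberg adjustment over all genes and a threshold of 0.05, on the 11 CD45- libraries of the study's sample list with a mean for each of the 4 genotypes, or on 21 libraries in 8 groups for the sort fractions. Slopes added the log2 summed CPM of a marker list, none of whose genes is a niche gene. SE is the log2 value over the root of F, and intervals are 95%. The genes named are the 9 members, Rbck1, Il4ra and the 3 genes most like each member. From the pathway lists they are the 2 genes of each with the highest mean level per kilobase of exon and any called by genotype. In addition, the pathway genes with the smallest adjusted p per genotype comparison were named after their values were seen. The fits were also run on simulated counts with known changes. For the genotype comparison these were drawn for each gene independently, without a cell mixture that differs between libraries. They therefore do not measure power or error in these data. Alternatives were all libraries, RLE size factors, no filter, DESeq2 1.42.0, the likelihood ratio test, exactTest, the fibroblast level as covariate, and leaving out each library. CD45- libraries held 6028275 to 68345191 counts and CD45+ libraries 14938629 to 76807504. Tables and plots used Python 3.11.15, pandas 2.3.3 and matplotlib 3.10.9. The members and lists were chosen with earlier results of these data known.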

Additional observations from a re-analysis of the deposited data

How the results depend on the processing

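No paired analysis was possible because the labels give no number shared between groups, and the ages that some CD45- and CD45+ libraries of a genotype share do not say which come from 1 mouse. Outside the settings that leave out 1 library, the counts of called niche genes kept within 1.5 times the main count in 45 of 52 cases. The exceptions were 1 call (Bmp4) for the interaction by DESeq2 and 1 by the likelihood ratio test against 0, 4 on the fibroblast level with all libraries, 4 by DESeq2 and 4 by the likelihood ratio test against 1, and 2 by DESeq2 and 1 by the likelihood ratio test on the smooth muscle and pericyte level against 0; the cause was not tested. Over all genes the calls of these alternatives ran from 0 to 168 (main value 3) for the averaged Hoil1 effect, 0 to 613 (main value 6) in Il4ra f/f mice, 0 to 138 (main value 1) in Il4ra ΔIEC mice, 0 to 159 (main value 0) for the Il4ra effect, 0 to 1466 (main value 0) for the interaction, 186 to 1985 (main value 284) on the fibroblast level, 1940 to 3062 (main value 2031) on the endothelial level and 0 to 779 (main value 0) on the smooth muscle and pericyte level, DESeq2 giving the most in each. Leaving out single libraries gave 0 to 1 calls for the averaged Hoil1 effect, 0 to 2 each for the Hoil1 effect in Il4ra f/f mice, the Il4ra effect, the interaction and the fibroblast level, and 3 to 8 for the sort fractions, and 2 to 4 for the endothelial level; a genotype left with 1 library is assumed to vary like the others.

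Single genes changed sign as follows, none of them called. With all libraries, Bmp4 was at 0.43 and Wnt2b at 0.074 in the averaged Hoil1 effect, Pdgfra at 0.36, Grem1 at 0.32 and Bmp5 at 0.37 in Il4ra f/f mice, Pdgfra at -0.42 in the Il4ra effect and Wnt5a at -0.19 on the endothelial level. With the fibroblast covariate, Grem1 was at -0.049 and Bmp5 at -0.63 in the averaged Hoil1 effect, Pdgfra at 0.29 and Grem1 at 0.057 in Il4ra f/f mice, Pdgfra at -0.24, Grem1 at -0.16, Bmp5 at -0.91 and Wnt2b at -0.90 in Il4ra ΔIEC mice, Pdgfra at -0.58 and Grem1 at -0.0072 in the Il4ra effect, and Pdgfra at -0.53, Grem1 at -0.21 and Bmp5 at -0.57 in the interaction; that fit takes out what moves with the fibroblast markers. Leaving out single libraries, the averaged Hoil1 effect ran from -0.45 to 0.79 for Pdgfra, -0.21 to 1.06 for Grem1, -0.77 to 0.20 for Bmp4, -4.03 to 0.76 for Bmp5 and -2.55 to 4.06 for Rspo3. The Hoil1 effect in Il4ra f/f mice ran from -2.34 to 0.16 for Pdgfra and -8.61 to 0.87 for Bmp5, and that in Il4ra ΔIEC mice from -0.29 to 1.63 for Bmp5, -0.39 to 0.98 for Wnt5a and -0.71 to 0.19 for Gli1. The Il4ra effect ran from -0.32 to 0.93 for Pdgfra, -0.20 to 4.60 for Bmp5 and -3.23 to 3.37 for Rspo3, the interaction from -0.32 to 9.15 for Bmp5, and the slope on the endothelial level from -0.35 to 1.88 for Bmp5 and -0.45 to 0.83 for Wnt5a. All other alternatives kept the sign of every niche gene. Counts of 0 in libraries of 6028275 counts and more limit what can be said of Bmp5, Wnt5a, Rspo3 and Foxl1.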
